A study of Mus musculus with 24 samples.

Results

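Olfactory epithelium of mice given a mixture of octanal and cis-3-hexenol (the OC mixture) was set against that of mice given cis-3-hexenol alone. The comparison takes all libraries of these groups, 3 of each, so 6 of the 24 libraries of the series, and every gene of their shared table. The table lists 57010 Ensembl genes, of which 19175 had enough counts to be tested and the rest were too low. All mice were wild-type C57BL/6J males aged 8 weeks, habituated without odor for 4 h and exposed for 90 min to 10 µL of liquid on filter paper, one mouse to a chamber. Octanal, a straight-chain aldehyde, and cis-3-hexenol, the unsaturated alcohol that gives cut leaves their smell, were used undiluted, and the mixture held them at 1:1 in the same volume. The mixture libraries therefore differ from the cis-3-hexenol libraries by the presence of octanal and by a smaller amount of cis-3-hexenol, and the effects of these cannot be told apart here. The same batch, which the labels name after the OC odorants, holds 3 libraries of octanal alone and 3 of empty filter paper, which are given as reference points. The labels call the 3 libraries of a group biological replicates without saying whether each is 1 mouse or a pool. RNA came from a cleared detergent lysate of whole epithelium, and the libraries were made with a stranded kit for messenger RNA, although the labels give the molecule as total RNA.

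Each mature olfactory sensory neuron uses 1 receptor gene out of a family of class I receptors, which resemble those of fish, and the larger class II. Odorant binding acts through the olfactory G protein, adenylyl cyclase and a cyclic nucleotide-gated channel, and neurons that fire switch on immediate early genes and, more slowly, genes whose level follows their activity. Support cells, basal stem cells, glands, blood vessels and connective tissue share the dissected tissue.

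The 6 libraries held 19003749 to 24531346 counts each, and levels are given as CPM, counts scaled to one common library size with the TMM factors of edgeR. The tissue label was checked against markers, and Omp, which mature sensory neurons express at high levels, had 9913, 10899 and 10631 CPM in the mixture libraries and 10319, 11025 and 10193 CPM in the cis-3-hexenol libraries. Cyp2g1, a cytochrome P450 of sustentacular cells, averaged 2123 ± 148 CPM with the mixture and 1952 ± 42.4 CPM with cis-3-hexenol, and Krt5, the keratin of horizontal basal stem cells, averaged 54.1 ± 3.34 and 61.6 ± 1.58 CPM in the same order (SD, n = 3 each). Mixture replicate 3 stood apart from the other mixture libraries in the share of counts from mitochondrial DNA, at 0.470% against 0.772% and 0.834%, and in class I receptors, whose summed level was 193.6 CPM against 449.0 and 357.6 CPM. The cis-3-hexenol libraries ran from 0.729% to 0.812% and from 308.1 to 396.2 CPM. Octanal libraries ran from 0.387% to 0.461% and from 246.1 to 330.1 CPM in the same order. The medians of class I receptors, mitochondrially encoded transcripts and bone genes are given without mixture replicate 3 as well.

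No gene was called between the OC mixture and cis-3-hexenol, 0 of 19175 (0%), by the quasi-likelihood F-test of edgeR at an adjusted p under 0.05. At an unadjusted p under 0.05 stood 1187 genes (6.19%), of which 473 (2.47%) were higher with the mixture and 714 (3.72%) were lower. The Wald test of DESeq2 on the same libraries called 14 genes, 4 higher and 10 lower, and all 14 were among the 22 genes with the smallest p in edgeR. The smallest adjusted p in edgeR was 0.318. The mixture and cis-3-hexenol libraries did not overlap in 2627 genes (13.7%), and the log2 fold change was above 0 in 9788 genes (51%).

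Most genes were measured closely enough to bound the difference. The 95% interval of the log2 fold change, taken for each gene alone, lay within 2-fold in either direction for 15955 genes (83.2%) and within 1.5-fold for 12827 (66.9%). The middle 90% of genes had log2 fold changes from -0.43 to 0.36, and the median standard error was 0.12. Fold changes over 2-fold were seen in 266 genes, with a median mean count of 10.3, and 13 of them had a mean count of at least 100.

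**Figure D1:**
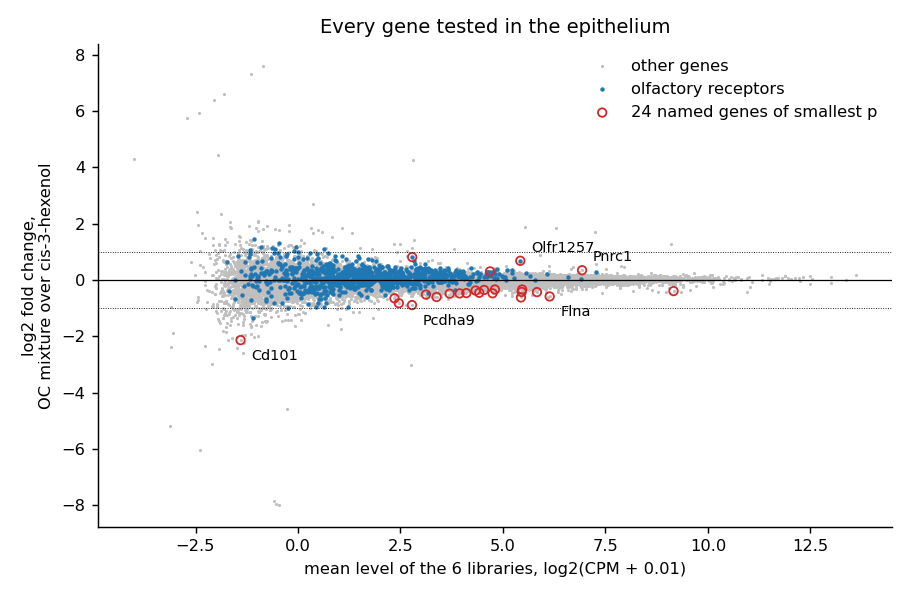
Log2 fold change of the OC mixture over cis-3-hexenol for each of the 19175 genes tested (vertical axis) against the mean level of the 6 libraries in log2 CPM (horizontal axis). Receptors are blue, the 24 named genes with the smallest p are circled in red, and dotted lines mark 2-fold. The cloud narrows with level, 20 of the 24 circled genes lie below 0, and no gene passed the adjusted threshold in edgeR.

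The gene with the smallest p was Pnrc1 (ENSMUSG00000040128), which encodes a proline-rich coactivator of nuclear receptors. It stood at 138, 135.5 and 137 CPM with the mixture and at 114, 105 and 103 CPM with cis-3-hexenol. All mixture values were above all cis-3-hexenol values, a log2 fold change of 0.35 (SE 0.06, 95% interval 0.23 to 0.47, adjusted p = 0.318). Octanal libraries averaged 117 ± 4.01 CPM and no-odor libraries 104 ± 2.63 CPM (SD, n = 3 each), so the mixture was the group with the highest mean. DESeq2 called it (adjusted p = 0.000453), and leaving out any 1 library kept the log2 fold change between 0.32 and 0.39. Rpp30, which encodes a protein subunit of ribonuclease P, was the other higher gene among the 24 that is no receptor, at 28.4 ± 0.53 CPM with the mixture and 22.9 ± 0.914 CPM with cis-3-hexenol (log2 fold change 0.31, adjusted p = 0.386).

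The other 20 of the 24 named genes with the smallest p were lower with the mixture, and none was called in edgeR (adjusted p 0.349 to 0.390). Among these lower genes DESeq2 called Rsrp1, Flna, Msln, Lrp1, Pcdha9, Col6a3, Clmp and Cgn (adjusted p 0.000546 to 0.0482). These 24 were taken for their p, so their shared direction is a description and not a test. In each of the 24 the mixture and cis-3-hexenol libraries did not overlap. The lower genes are described below by what each encodes, and not as a tested group.

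Flna (ENSMUSG00000031328), which encodes filamin A, a crosslinker of actin, stood at 55.2, 62.8 and 51.5 CPM with the mixture and at 88.4, 86.4 and 78.7 CPM with cis-3-hexenol. The log2 fold change was -0.58 (SE 0.11, 95% interval -0.82 to -0.35, adjusted p = 0.349), and DESeq2 called it (adjusted p = 0.00137). Its level was highest without odor, 130 ± 23.2 CPM, and octanal libraries averaged 68.8 ± 5.22 CPM. Plec, which encodes the cytoskeletal linker plectin, stood at -0.45 on the log2 scale.

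Col6a3, a chain of type VI collagen, had 4.31, 4.74 and 2.86 CPM with the mixture and 6.95, 7.32 and 6.77 CPM with cis-3-hexenol. It stood at -0.82 on the log2 scale (SE 0.17, adjusted p = 0.349), with 9.08 ± 1.26 CPM in the no-odor libraries, and at -0.63 without mixture replicate 3. Col6a1, another chain of the same collagen, stood at -0.33, and the olfactomedin-like matrix genes Olfml2b and Olfml2a at -0.60 and -0.51 in that order. Cldn5, the tight junction claudin of endothelium, had 16.1, 19.8 and 16.8 CPM with the mixture and 23.3, 22.8 and 21.9 CPM with cis-3-hexenol, against 37.0 ± 0.616 CPM without odor. In both genes the libraries exposed to either odor lay below the no-odor libraries.

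Cgn, which encodes the tight junction protein cingulin, stood at -0.33, and Clmp, which encodes an adhesion molecule of epithelia, at -0.47. Pcdha9, a clustered protocadherin, stood at -0.89, with 4.80, 4.79 and 4.84 CPM in the mixture libraries and 10.9, 8.35 and 7.51 CPM in the cis-3-hexenol libraries. Protocadherins of this cluster share their last exons, so the split of reads among them is uncertain. Dkk2, which encodes a secreted modulator of Wnt signaling, stood at -0.65. Apcdd1, which encodes a membrane inhibitor of Wnt signaling, stood at -0.35, and the transcriptional co-repressor gene Tle2 at -0.47. Lrp1, an endocytic receptor for lipoproteins, stood at -0.62, the lipoprotein lipase gene Lpl at -0.48, the surface glycoprotein gene Msln at -0.43 and the alkaline phosphatase gene Alpl at -0.42. Rsrp1, which encodes a protein rich in arginine and serine, was the most abundant of the 24, at 484, 526 and 477 CPM with the mixture and 642, 691 and 616 CPM with cis-3-hexenol (log2 fold change -0.39, adjusted p = 0.349). The immune surface gene Cd101 had the largest log2 fold change of the 24, -2.13 with an interval from -3.15 to -1.12, at levels of 0.742 CPM or less in all 6 libraries.

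**Figure D2:**
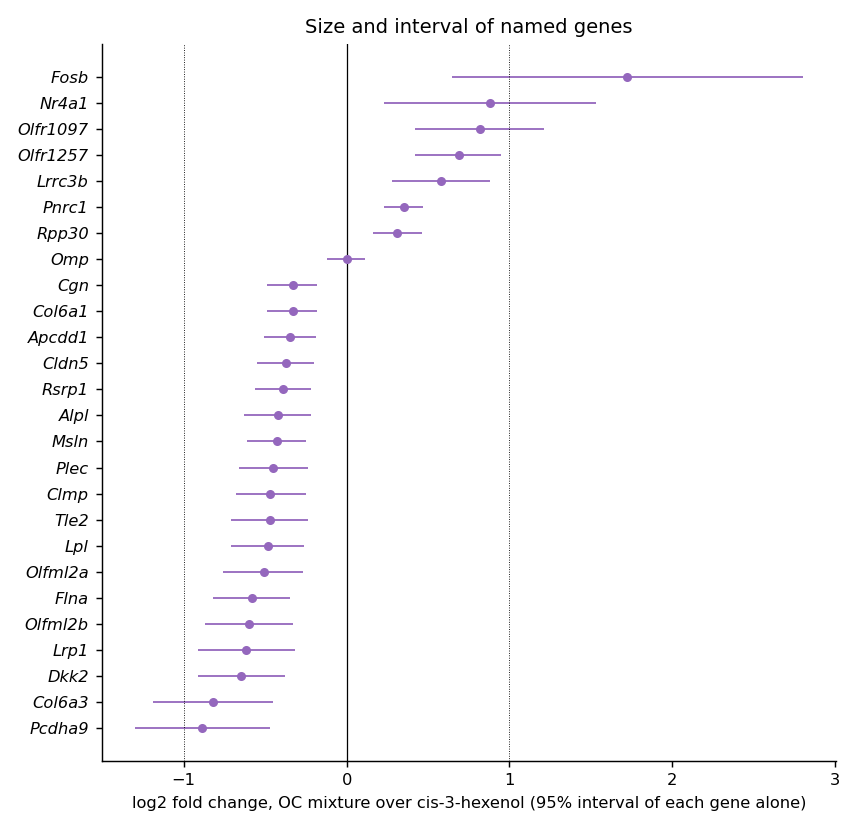
Log2 fold change of the OC mixture over cis-3-hexenol (points, horizontal axis) with the 95% interval of each gene alone (lines) for 22 of the 24 named genes with the smallest p and for Lrrc3b, Fosb, Nr4a1 and Omp. Cd101, at -2.13, is left off for its width. The lines of the 22 genes do not reach 0, and the line of Omp spans it from -0.12 to 0.11.

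Immediate early genes were examined next, since they answer to neuronal firing within the time of the exposure. Of 36 tested, 0 were called in edgeR, 4 were higher at an unadjusted p under 0.05 (Fosb, Egr4, Nr4a1 and Dusp5) and 0 lower, where all genes gave 2.47% higher and 3.72% lower, with a median log2 fold change of 0.09 against 0.00 over all genes tested. The median was 0.03 without mixture replicate 3 or without cis-3-hexenol replicate 2. The promoters of Fosb, Nr4a1 and Fos are shown because these genes answer to cyclic AMP and calcium in neurons, and because they differ here in how far the groups separate. Capitals mark TGACG, the first letters of the cAMP response element, or CGTCA, the same letters read from the other strand. The windows are the 250 bases before the RefSeq start in the build GRCm38.p6, 5′ to 3′.
Fosb, chr7:19310046-19310295, minus strand: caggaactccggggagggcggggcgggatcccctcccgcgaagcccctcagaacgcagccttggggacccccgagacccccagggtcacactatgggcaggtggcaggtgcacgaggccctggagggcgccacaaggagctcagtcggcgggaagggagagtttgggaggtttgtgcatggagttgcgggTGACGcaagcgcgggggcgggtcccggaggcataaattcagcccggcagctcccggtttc
Nr4a1, chr15:101266596-101266845, plus strand: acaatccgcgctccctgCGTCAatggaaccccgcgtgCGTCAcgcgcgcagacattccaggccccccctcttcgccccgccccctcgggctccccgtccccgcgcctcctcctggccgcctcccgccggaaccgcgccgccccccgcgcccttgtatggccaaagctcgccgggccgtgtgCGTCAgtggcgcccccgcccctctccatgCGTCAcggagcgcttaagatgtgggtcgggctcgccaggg
Fos, chr12:85473640-85473889, plus strand: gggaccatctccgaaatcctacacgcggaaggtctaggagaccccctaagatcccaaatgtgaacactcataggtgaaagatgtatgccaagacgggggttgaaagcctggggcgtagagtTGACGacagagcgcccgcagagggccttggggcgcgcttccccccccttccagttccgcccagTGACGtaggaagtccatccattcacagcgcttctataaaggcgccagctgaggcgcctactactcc
The motif occurs 1 time in the Fosb window, 4 times in that of Nr4a1 and 2 times in that of Fos, and 17.8% of all 32851 promoter windows of this length hold it on either strand. The windows of Egr4 and Pcdh10 hold it 2 times each, and those of Pnrc1 and Lrrc3b hold it 0 times. A match is a description of the letters and not of a bound site.

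Fosb (ENSMUSG00000003545) encodes a subunit of the transcription factor AP-1. It had 2.77, 2.69 and 1.38 CPM with the mixture, 4.26, 2.72 and 1.93 CPM with octanal alone, and 0.732, 0.544 and 0.783 CPM with cis-3-hexenol. Every mixture library was above every cis-3-hexenol library, a log2 fold change of 1.72 (SE 0.50, 95% interval 0.65 to 2.80, adjusted p = 0.572). Nr4a1 (ENSMUSG00000023034), an orphan nuclear receptor gene used as a marker of active olfactory neurons, had 91.7, 82.8 and 58.1 CPM with the mixture, 137, 98.0 and 65.6 CPM with octanal and 46.7, 28.1 and 51.4 CPM with cis-3-hexenol. The mixture again lay above cis-3-hexenol without overlap, with a log2 fold change of 0.88 (95% interval 0.23 to 1.53, adjusted p = 0.677). Egr4, a zinc finger factor of the same early class, stood at 1.13 with levels of 1.01 to 1.56 CPM with the mixture and 0.346 to 0.784 CPM with cis-3-hexenol.

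Other early genes overlapped. Fos had 16.9, 15.6 and 18.0 CPM with the mixture and 10.7, 5.88 and 20.6 CPM with cis-3-hexenol, a log2 fold change of 0.43 with an interval from -0.50 to 1.37. Leaving out cis-3-hexenol replicate 3 gave 1.02 and leaving out replicate 2 gave 0.09. Egr1 stood at 0.16, Npas4 at 0.50 and Nr4a2 at 0.21, with intervals that spanned 0 in each. Leaving out each library gave 0.05 to 0.39 for Egr1, 0.21 to 1.12 for Npas4 and 0.06 to 0.55 for Nr4a2, with each highest or lowest value coming from a fit without a cis-3-hexenol replicate.

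The 10 genes whose level follows activity in olfactory sensory neurons all had log2 fold changes above 0, with a median of 0.19. Over all genes tested, 51% were above 0. In edgeR 0 of 10 were called, while DESeq2 called none. At an unadjusted p under 0.05, 4 were higher (Lrrc3b, Kcng1, Pcdh10 and Doc2g), where all genes gave 2.47%. Lrrc3b (ENSMUSG00000045201), a leucine-rich repeat gene of this list, had 206, 198 and 148 CPM with the mixture, 151 ± 26.6 CPM with octanal and 130.5, 119 and 121 CPM with cis-3-hexenol. Its groups did not overlap, at a log2 fold change of 0.58 (SE 0.14, 95% interval 0.28 to 0.88, adjusted p = 0.390), and no-odor libraries averaged 62.8 ± 11.1 CPM. Kcng1, a potassium channel subunit, had 40.3, 40.1 and 37.8 CPM with the mixture and 30.5, 25.3 and 28.6 CPM with cis-3-hexenol, at 0.49 (adjusted p = 0.752). The adhesion gene Pcdh10 stood at 0.61 with overlap, and Sema7a, which encodes a guidance molecule, at 0.20. S100a5, which encodes a calcium-binding protein, stood at 0.18, Kirrel2, which encodes an axon sorting adhesion molecule, at 0.13 and Pcp4l1 at 0.04, each with overlap. The list was drawn up with earlier results of these data known. Doc2g, which had the highest log2 fold change of the list, 1.27, stood at 13.6 CPM in mixture replicate 1 against 3.13 and 4.70 CPM in the other mixture libraries and 2.42 to 3.59 CPM with cis-3-hexenol. Without that library its log2 fold change was 0.39. Slc17a7, a glutamate transporter gene of olfactory bulb neurons, was high in the same library, at 8.18 CPM against 1.37 and 1.75 CPM. Of the 14 bulb genes tested, 1 was higher at an unadjusted p under 0.05, where all genes gave 2.47%. Their summed level was 1463 to 1692 CPM with the mixture and 1415 to 1498 CPM with cis-3-hexenol. None was at 0, and their part in Doc2g was not tested.

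**Figure D3:**
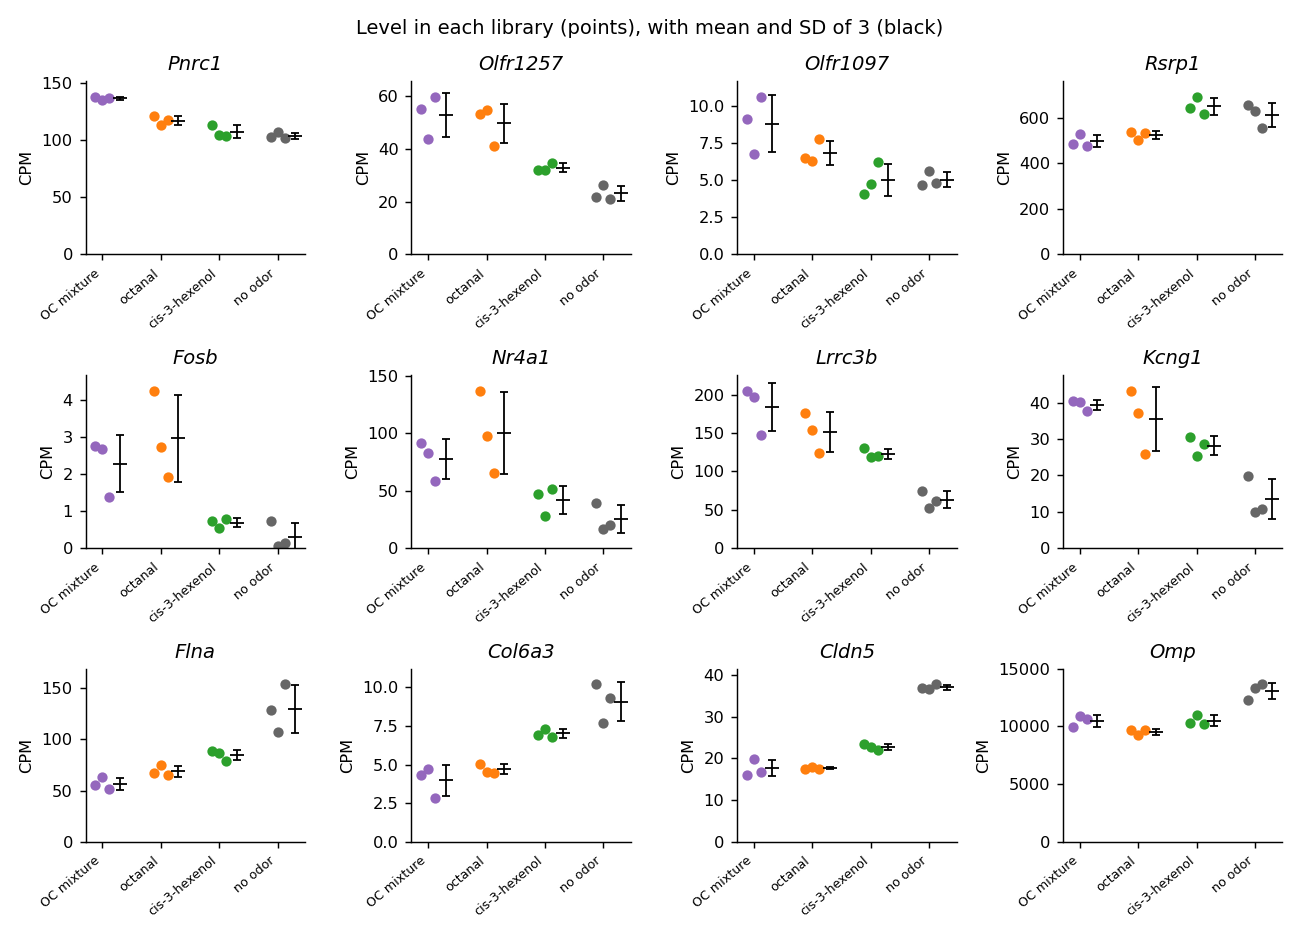
Level in CPM (vertical axes, from 0) of 12 genes in each library of the OC mixture, octanal, cis-3-hexenol and no-odor groups. Points are libraries, and black marks give the mean and SD of 3. Mixture points of Pnrc1, Olfr1257, Fosb, Nr4a1 and Lrrc3b lie above all cis-3-hexenol points, those of Flna, Col6a3 and Cldn5 lie below, and those of Omp overlap.

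Genes of odor transduction differed little, and most were slightly higher with the mixture. Gnal, the olfactory G protein subunit, stood at 0.12, the adenylyl cyclase gene Adcy3 at 0.02 and the channel gene Cnga2 at 0.04 on the log2 scale, with 95% intervals from -0.06 to 0.31, from -0.18 to 0.23 and from -0.14 to 0.22. The 20 genes of the list had a median of 0.04 and a range from -0.04 to 0.19, 0 were called in edgeR and 0 stood at an unadjusted p under 0.05, and all 20 intervals lay within 2-fold. Of the 20, 17 were above 0 and 3 below, where 51% of all genes were above 0. Their summed level was 18633 to 18837 CPM with the mixture and 17346 to 17740 CPM with cis-3-hexenol, without overlap. The 15 genes of mature sensory neurons had a median of 0.04 and the 16 of immature neurons one of 0.03. Omp had a log2 fold change of 0.00 with an interval from -0.12 to 0.11, and Gap43, a growth protein of immature neurons, had 0.02 with an interval from -0.17 to 0.21.

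Olfactory receptors were counted as 1094 genes in the table, of which 924 were tested. In edgeR 0 were called, 79 were higher and 9 lower at an unadjusted p under 0.05, where all genes gave 2.47% and 3.72%. DESeq2 called 1 receptor. The median log2 fold change was 0.11, with 609 receptors (65.9%) above 0 against 51% of all genes, and the 95% interval was within 2-fold for 609. Their summed level was 5142 to 5709 CPM with the mixture, 4797 to 5213 CPM with octanal, and 4664 to 5121 CPM with cis-3-hexenol. The median was 0.05 without mixture replicate 1 and 0.19 without mixture replicate 3. Correction of each library for transcript length and GC content also gave 0.05. With that correction 64 of 924 receptors stood at an unadjusted p under 0.05, beside 1060 of 19175 genes. Without it these counts were 88 and 1187. More neurons with a receptor and more RNA per neuron cannot be told apart in whole tissue, and receptors with near-identical copies may share reads.

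The receptor with the smallest p was Olfr1257 (ENSMUSG00000049057), a class II receptor on chromosome 2. It had 55.1, 43.7 and 59.8 CPM with the mixture, 53.4, 54.6 and 41.0 CPM with octanal, and 31.8, 32.1 and 34.7 CPM with cis-3-hexenol. Mixture and octanal libraries all lay above the cis-3-hexenol libraries, which lay above the no-odor mean of 23.1 ± 2.94 CPM. The mixture stood 0.69 above cis-3-hexenol on the log2 scale (SE 0.13, 95% interval 0.42 to 0.95, adjusted p = 0.349), and DESeq2 called it (adjusted p = 0.000546). Olfr1097 had 9.08, 6.74 and 10.6 CPM with the mixture and 4.03, 4.75 and 6.18 CPM with cis-3-hexenol, a log2 fold change of 0.82 (adjusted p = 0.386). Olfr1110 stood at 0.40, Olfr1126 at 1.11 and Olfr1255 at 0.85, all without overlap, and these 5 receptors of smallest p among the higher ones all lie on chromosome 2. That chromosome holds 233 of the tested receptors, 26 of them higher and 2 lower at an unadjusted p under 0.05, which is 12% against 9.52% of all receptors tested, with a median of 0.16. Chromosome 16 had 7 of 33 higher with a median of 0.22, chromosome 19 had 5 of 49 higher and 1 lower with a median of 0.16, and the medians were 0.19 on chromosome 17, 0.18 on chromosome 11 and 0.02 on chromosome 7. The 5 lower receptors of smallest p were Olfr1490 at -0.95, Olfr747 (0.529 to 0.586 CPM with the mixture, 0.829 to 1.43 CPM with cis-3-hexenol), Olfr1364 at -0.34, Olfr881 at -0.97 and Olfr322 at -0.58, with adjusted p from 0.588 to 0.708, and they lie on 5 chromosomes.

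The classes gave different values. The 801 class II receptors tested of 950 in the table had a median of 0.13 on the log2 scale, with 79 higher and 9 lower at an unadjusted p under 0.05, and their summed level was 4770 to 5191 CPM with the mixture and 4290 to 4660 CPM with cis-3-hexenol, without overlap. The 107 class I receptors tested of 124 had a median of -0.02 and none at an unadjusted p under 0.05. The class II median was 0.08 without mixture replicate 1, 0.17 without mixture replicate 3 and 0.08 with correction for length and GC content. In class I the direction turned with single libraries, at -0.35 without mixture replicate 1, 0.27 without mixture replicate 3 and 0.11 without cis-3-hexenol replicate 3. The difference between the classes was not tested. The 8 trace amine-associated receptors tested, which sense amines, had a median of 0.06 with 0 at an unadjusted p under 0.05.

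**Figure D4:**
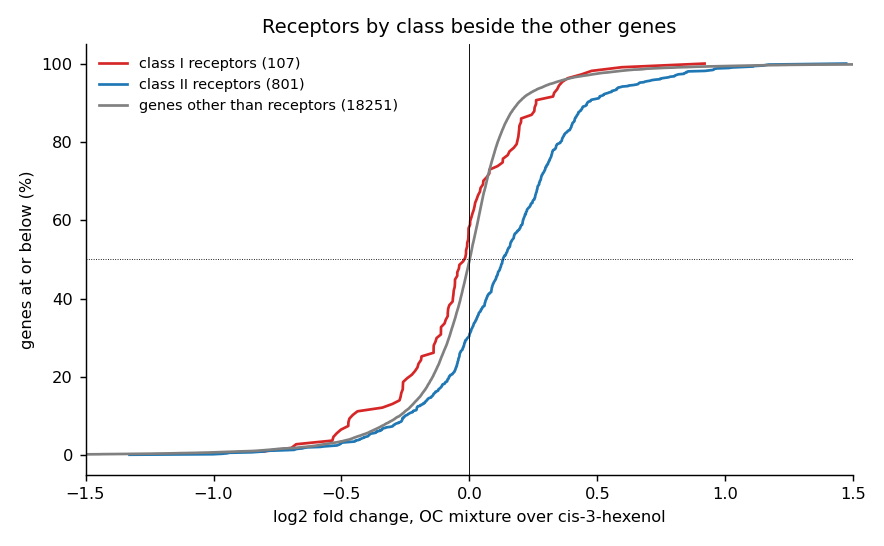
Share of genes (vertical axis, percent) with a log2 fold change of the OC mixture over cis-3-hexenol at or below the value on the horizontal axis, for the 107 class I receptors, the 801 class II receptors and all genes that are no receptor. The class II curve crosses 50% at 0.13, to the right of the other curves, and the class I curve crosses it at -0.02.

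Markers of connective tissue, blood vessels, bone, ensheathing cells, microvillar cells and horizontal basal cells were mostly lower with the mixture. Genes of sustentacular cells, motile cilia and globose basal cells were not, with 19 of 25, 13 of 24 and 9 of 17 above 0. Their medians were 0.06, 0.00 and 0.03 in that order. Of the 17 fibroblast and collagen genes tested of 19, 10 were lower at an unadjusted p under 0.05, where all genes gave 3.72%, 0 were called in edgeR and 1, Col6a3, in DESeq2, and all 17 had a log2 fold change below 0, while 51% of all genes were above 0, with a median of -0.27. Col3a1, a fibrillar collagen of connective tissue, had 62.1, 67.4 and 76.7 CPM with the mixture and 91.3, 88.6 and 99.3 CPM with cis-3-hexenol, which is -0.44 on the log2 scale (SE 0.11, adjusted p = 0.393). The summed level of the list was 1313 to 1464 CPM with the mixture and 1534 to 1643 CPM with cis-3-hexenol, without overlap. Each exposed group, octanal included, had list medians below the mean of the no-odor libraries. Col6a1, Col6a3 and Cldn5 described above are members of these lists.

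The same shares of all genes apply to the lists that follow. Endothelial and pericyte genes had a median of -0.30, with 6 of 19 lower at an unadjusted p under 0.05 and 0 called, and Pdgfrb, the pericyte receptor for platelet-derived growth factor, stood at -0.41 (adjusted p = 0.409). Bone genes had a median of -0.27 with 5 of 18 lower, among them Col1a1, the main collagen of bone, at 375 ± 31.0 CPM with the mixture and 505 ± 77.5 CPM with cis-3-hexenol (SD, n = 3 each). The bone median was -0.18 without mixture replicate 3. Horizontal basal cell genes had a median of -0.12 with 4 of 10 lower, Krt5 at -0.19 among them. The 15 ensheathing and Schwann cell genes had a median of -0.17, and the 17 genes of microvillar cells, tuft cells and ionocytes one of -0.18, with the tuft cell channel gene Trpm5 at -0.73 (1.83, 1.71 and 1.38 CPM with the mixture, 2.51, 3.26 and 2.40 CPM with cis-3-hexenol). No tested marker of the fibroblast, endothelial, bone, marrow, red cell or bulb lists was at 0 in any of the 6 libraries. What part these cells had in the genes with the smallest p was not tested.

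Neutrophil and marrow genes had a median of -0.39 with 5 of 18 lower at an unadjusted p under 0.05, and Mpo, the myeloperoxidase of their granules, had 6.63, 11.0 and 6.50 CPM with the mixture and 12.3, 12.7 and 11.4 CPM with cis-3-hexenol. Their summed level overlapped, at 202.8 to 302.7 CPM with the mixture and 234.6 to 334.1 CPM with cis-3-hexenol. The 13 red cell genes tested had a median of -0.25, with 11 below 0, 1 lower at an unadjusted p under 0.05 and 0 called in edgeR. Among them the globin gene Hbb-bs was lowest in mixture replicate 3, at 324 CPM against 628 and 703 CPM. Its log2 fold change was -0.15 with all libraries and 0.12 without that library.

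**Figure D5:**
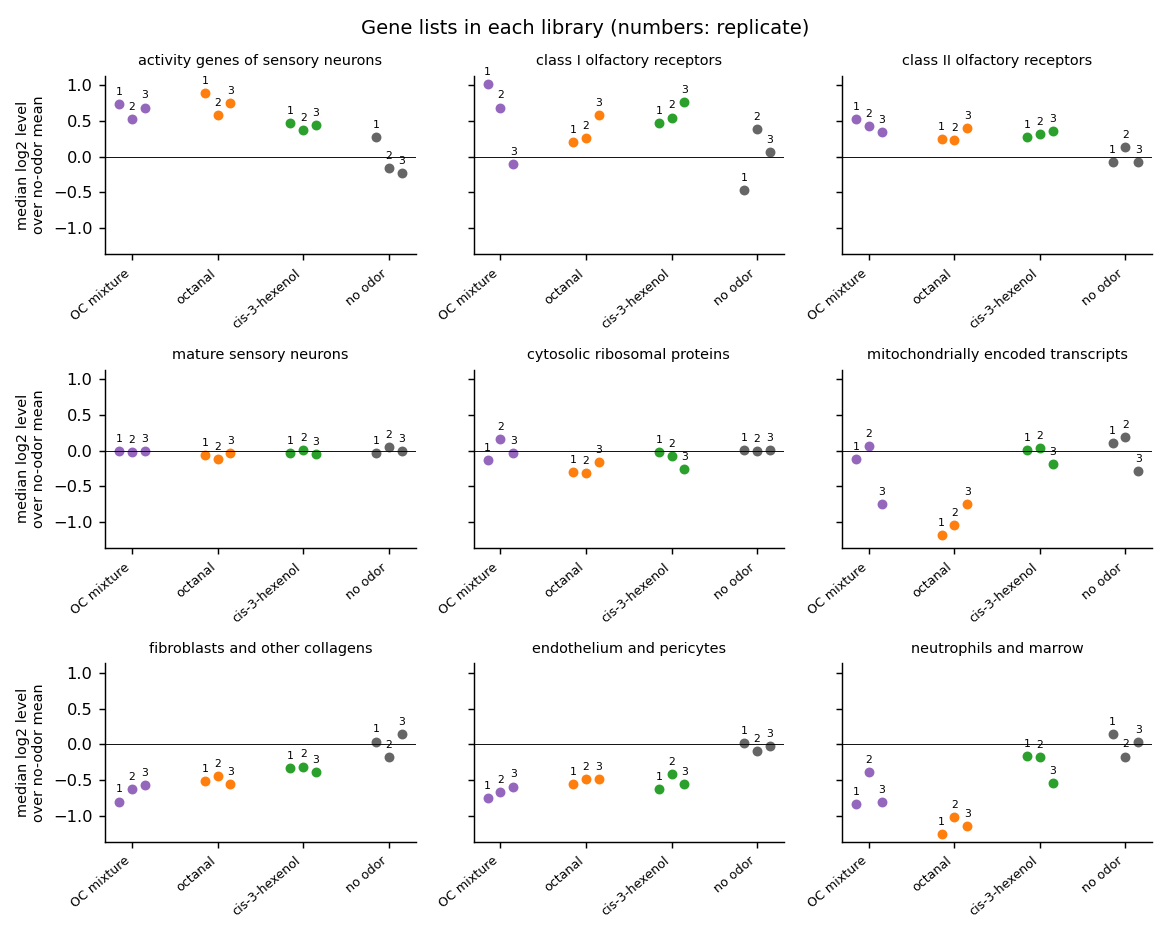
Median level of 9 gene lists in each library, as log2(CPM + 0.5) over the mean of the no-odor libraries (vertical axes), for the OC mixture, octanal, cis-3-hexenol and no-odor groups, with the replicate number above each point. Fibroblast medians are -0.80 to -0.57 with the mixture and -0.39 to -0.31 with cis-3-hexenol, while class I receptors and mitochondrially encoded transcripts are low in mixture replicate 3.

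Genes of protein synthesis and energy are given next. Of 78 cytosolic ribosomal protein genes, 76 had log2 fold changes above 0, where 51% of all genes tested were above 0. At an unadjusted p under 0.05, 4 were higher and 0 lower (5.13%), against 6.19% of all genes, and 0 were called in edgeR. Their highest log2 fold change was 0.25 and their median 0.11. The median was 0.03 without mixture replicate 2 and 0.05 without cis-3-hexenol replicate 3. The 15 transcripts encoded by mitochondrial DNA all had log2 fold changes below 0, with a median of -0.15, a median SE of 0.17 and 0 at an unadjusted p under 0.05. Without mixture replicate 3 that median was 0.04. The complex I gene mt-Nd1 shows the spread, with 682, 747 and 404 CPM in the mixture libraries and 669, 678 and 648 CPM in the cis-3-hexenol libraries. In the octanal libraries mt-Nd1 averaged 353 ± 35.2 CPM.

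Genes that handle odorants and stress showed no list shift near 1.5-fold. The 25 enzymes of aldehyde and alcohol metabolism tested had a median of 0.00 and a range from -0.19 to 0.21, with Aldh1a1, which oxidizes aldehydes, at 240 ± 3.28 CPM with the mixture and 230 ± 7.34 CPM with cis-3-hexenol. The 16 targets of NRF2, the factor that answers to reactive chemicals, had a median of -0.01 and a range from -0.21 to 0.11. The 25 sustentacular and xenobiotic genes had a median of 0.06, the 19 heat shock genes 0.01, the 20 genes of the unfolded protein response -0.02 and the 16 glucocorticoid genes 0.04. Between 0 and 1 member of each of these lists stood at an unadjusted p under 0.05.

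Gland secretions were uneven, and only part of the list was measured closely. Of 27 tested, 0 were called in edgeR, and 1 was higher and 4 lower at an unadjusted p under 0.05 (18.5%, against 6.19% of all genes). The list had a median of -0.03, with 13 genes above 0 and 14 below. Its median SE was 1.14, against 0.12 over all genes tested, and 10 intervals lay within 2-fold. Lcn3, a lipocalin of nasal glands, had 50.9, 314 and 0.461 CPM with the mixture and 101, 0.692 and 0 CPM with cis-3-hexenol, and Obp2a, an odorant-binding protein gene, had 363, 1928 and 59.5 CPM with the mixture and 890, 23.6 and 49.2 CPM with cis-3-hexenol. Single libraries of both groups held most of these counts, and near-identical lipocalin copies may share reads. Amelx and Ambn, which encode enamel proteins of developing teeth, were found mainly with cis-3-hexenol. Amelx was at 0 in all 3 mixture libraries, at 0.538, 0 and 0.21 CPM with octanal and at 3.29, 0.148 and 0.876 CPM with cis-3-hexenol, and Ambn had 0.122, 0.0488 and 0 CPM with the mixture and 3.14, 0.346 and 1.24 CPM with cis-3-hexenol.

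The contrasts that frame the mixture gave no calls in the main edgeR fit of all 12 libraries either. Octanal against cis-3-hexenol, both undiluted, had 0 genes called of 19175 (0%), while DESeq2 called 236 and an edgeR fit of those 6 libraries alone called 803. Unadjusted, 2496 genes (13%) passed 0.05, of which 1329 (6.93%) were higher with octanal and 1167 (6.09%) were lower. The mixture against the mean log2 level of its components had 0 called (0%), while DESeq2 called 33. Unadjusted, 1563 genes (8.15%) passed 0.05, of which 787 (4.1%) were higher with the mixture and 776 (4.05%) were lower. These contrasts share libraries with the comparison of the mixture and cis-3-hexenol, so their values are given side by side only. Pnrc1 stood 0.29 above the mean of the components (SE 0.05, adjusted p = 0.261), while octanal stood 0.13 above cis-3-hexenol. Fosb stood at 0.67 for the mixture against the mean of the components and at 2.10 for octanal against cis-3-hexenol, and Nr4a1 at 0.26 and 1.25 in the same order. Lrrc3b had 0.43 and 0.30 and Flna -0.43 and -0.30 for these contrasts. Mitochondrially encoded transcripts had medians of 0.31 and -0.92, and neutrophil and marrow genes 0.24 and -1.25, so octanal alone stood further from cis-3-hexenol than the mixture did in these lists.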

How the data were processed

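Poly(A) libraries of mouse olfactory epithelium were sequenced, per the labels' protocols, and the deposited table gives expected counts per Ensembl gene for the 12 libraries of the OC batch, not scaled between libraries. Per the submitters' processing notes STAR 2.7.10b, Salmon 1.10.1, R 4.4.2 and the build GRCm39 were used; the role of each and the annotation release are not given in the sources used here. Expected counts were rounded (12.6% were not whole). The other batch was not used. GENCODE M21 (GRCm38) gave symbols, transcript lengths and GC content by Ensembl ID (52029 of 57010 named; the rest held 0.321% of counts), and RefSeq gave promoters, where 7 of 8 genes looked up had a window. Receptor classes came from RefSeq synonyms.

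Genes were tested in edgeR 4.0.16 (R 4.3.3) with filterByExpr, TMM scaling and the quasi-likelihood F-test on all 12 libraries in 4 groups without a block, two-sided. Calls are genes with a p under 0.05 after Benjamini-Hochberg adjustment over all 19175 genes. Every adjusted p is from this fit unless DESeq2 1.42.0 is named. The standard error is the log2 fold change over the square root of F, and its 95% interval is for that gene alone. Lists are described by counts and medians. Each p of the edgeR fit sets a group difference against a spread estimated from all 12 libraries and partly shared between genes. It covers only the variation between these libraries. No libraries were duplicates, since within a group the smallest chi-square per degree of freedom was 5.27. The code was tested on simulated counts.

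The members and lists were chosen with earlier results of these data known. Named are the 24 genes of smallest p, the 5 receptors of smallest p in each direction and 11 genes always given (Fos, Fosb, Egr1, Nr4a1, Npas4, S100a5, Kirrel2, Lrrc3b, Pcp4l1, Omp and Gap43), without predicted genes; 1 of the 24 is not reported here. All other named genes are list members chosen after their values were seen. Alternatives were DESeq2 size factors, upper-quartile scaling, no low-count filter, 1 CPM in 3 libraries, a replicate block, a robust fit, the DESeq2 Wald test, the libraries compared only, length and GC offsets, these with the block, and leaving out each library.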

Additional observations from a re-analysis of the deposited data

How the results depend on the processing

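Under DESeq2 size factors, upper-quartile scaling, a filter of 1 CPM in 3 libraries, a robust fit and length and GC offsets, edgeR called 0 genes in each of the 3 contrasts and 0 receptors. With no low-count filter it called 188 genes for the mixture against cis-3-hexenol (76 higher, 112 lower), 9 receptors, 581 genes for octanal against cis-3-hexenol and 229 for the mixture against the mean of its components. That fit gave a gene's own spread no weight, as its prior degrees of freedom were infinite against a median of 7.36 with the filter. It called 67 genes of the 163 shared with the filtered table whose groups overlapped, Lcn3 among them. DESeq2 called 14 genes, 1 receptor, 236 genes and 33 genes in the same order. A fit of only the libraries compared called 803 genes for octanal against cis-3-hexenol and 0 for the others. Leaving out each library gave 0 to 1 gene for the mixture against cis-3-hexenol (1 without cis-3-hexenol replicate 1), 0 to 0 receptors, 0 to 1 gene for octanal against cis-3-hexenol (1 without octanal replicate 2) and 0 to 1 gene for the mixture against the mean (1 without cis-3-hexenol replicate 1).

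The replicate numbers did not pair the libraries. Deviations of same-numbered mixture and cis-3-hexenol libraries correlated at -0.0688 to -0.0315, and 0 of 3 mixture libraries correlated best with their own number. With the replicate number as a block, alone or with the offsets, 0 genes were called for the mixture against cis-3-hexenol, 0 receptors, and 0 genes for the mixture against the mean, while octanal against cis-3-hexenol had 6 genes, or 19 with the offsets.

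Of 1113 log2 fold changes of named genes under these alternatives, 16 changed sign, in 9 genes, and the cause was not tested. Leaving out each library gave ranges of -0.02 to 0.09 for Pcp4l1, -0.04 to 0.03 for Omp, -0.00 to 0.04 for Gap43, -0.29 to 0.10 for mt-Nd1, -0.35 to 0.04 for mt-Rnr2, -0.38 to 8.48 for Lcn3, -0.61 to 4.43 for Obp2a, -0.37 to 0.12 for Hbb-bs and -0.05 to 0.09 for Adcy3. The sign changed without mixture replicate 3 in Pcp4l1, mt-Nd1, mt-Rnr2, Hbb-bs and Adcy3, without mixture replicate 2 in Lcn3 and Obp2a, without mixture replicate 1 in Omp, without cis-3-hexenol replicate 2 in Pcp4l1 and Omp, and without cis-3-hexenol replicate 3 in Gap43 and Hbb-bs. With the offsets, alone or with the block, Omp was at 0.04 and Gap43 at -0.01. Genes at an unadjusted p under 0.05 had median lengths of 1593 bases (higher) and 1888 bases (lower) and GC contents of 45.2% and 53.2%, against 1534 bases and 50.0% over all genes tested. The 266 genes past 2-fold had a median mean count of 10.3, against 303.2 over all genes tested, and the part of depth in this was not tested.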
